A study of Mus musculus with 6 samples.

Results

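The genes described are 10 genes by which the resident macrophages of the liver, Kupffer cells, are commonly recognised: Clec4f, Timd4, Vsig4, Cd5l, Marco, Msr1, Cd163, Cd68, Adgre1 and Csf1r. They were taken by gene symbol from the deposited expression table, where each of the 10 names was found once among 55573 genes. The values come from 6 polyA RNA libraries of mouse liver. The controls, DKO, carried the genotype mTR-/-Wrn-/-, lacking the telomerase RNA gene (mTR, Terc) and the RecQ helicase gene Wrn. The p21TKO mice carried the genotype p21-/-mTR-/-Wrn-/-, with the cell-cycle inhibitor gene p21 (Cdkn1a) deleted in addition, so the loss of mTR and Wrn was shared by both groups. All animals were of generation 3 and received normal feed, each group had 3 libraries, and the sample titles also carry the mark 2M, which the labels do not explain. According to the series text, the p21TKO mice already showed progeroid symptoms, and the question was which pathways change when p21 is lost. The labels name no promoter, Cre line or sex, and do not say that the replicates were separate animals. P-values therefore rest on the spread among these 6 libraries, which may be technical.

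Kupffer cells sit in the liver sinusoids, where they clear particles, dying cells and old red cells from the blood. They are kept by signalling through the receptor Csf1r and by cues from neighbouring endothelial, stellate and parenchymal cells, and they carry a set of receptors for complement, phosphatidylserine and polyanionic ligands. Some of the genes (Clec4f, Timd4, Vsig4, Marco) mark resident cells in the mouse liver, while others (Cd68, Adgre1, Csf1r) are shared by most macrophages. The values were measured in whole liver, so fewer Kupffer cells and less RNA per Kupffer cell cannot be told apart.

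The libraries differed in ways the genotype labels do not give. The Y-linked transcripts Ddx3y, Eif2s3y, Kdm5d and Uty were present in 3 libraries, p21TKO replicate 1 and the second and the third DKO replicate. They were listed at 0 in the other 3. Xist, the RNA that coats the inactive X, reached 1.79 to 20.9 FPKM where Y-linked transcripts were at 0, and at most 0.00576 FPKM where they were present. Each group therefore mixed libraries with and without Y-linked transcripts, in unequal numbers. Mitochondrially encoded genes made up 3.65% to 12.96% of the reads in the FPKM denominator. The FPKM denominators were 19363284 to 27061290 reads per library. Cdkn1a was not lower in the libraries labelled p21TKO (1.41, 11.1 and 6.50 FPKM) than in DKO (0.761, 1.79 and 0.405 FPKM), and with the deleted part of the gene not given the values cannot check the deletion. Every direction given for p21TKO rests on its labels.

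Promoter windows are shown for 4 genes typical of Kupffer cells whose window held at least 1 of the motifs searched and no annotated exon. Each is the 250 bases before the RefSeq transcription start (GRCm38.p6), read 5' to 3' on the strand of the gene. Marco lies on the minus strand (chr1:120505025-120505274), as does Vsig4 (chrX:96293439-96293688). Cd5l (chr3:87357631-87357880) and Timd4 (chr11:46810549-46810798) lie on the plus strand. Capitals mark, on either strand, the letters GAGGAA, a core bound by PU.1, the macrophage lineage factor encoded by Spi1, and TGCTGA, a half-site of MAF factors.
Marco: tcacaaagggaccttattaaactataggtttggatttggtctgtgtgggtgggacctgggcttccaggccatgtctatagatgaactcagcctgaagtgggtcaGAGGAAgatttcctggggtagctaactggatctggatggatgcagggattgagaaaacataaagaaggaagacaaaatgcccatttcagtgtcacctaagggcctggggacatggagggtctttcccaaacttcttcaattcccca
Vsig4: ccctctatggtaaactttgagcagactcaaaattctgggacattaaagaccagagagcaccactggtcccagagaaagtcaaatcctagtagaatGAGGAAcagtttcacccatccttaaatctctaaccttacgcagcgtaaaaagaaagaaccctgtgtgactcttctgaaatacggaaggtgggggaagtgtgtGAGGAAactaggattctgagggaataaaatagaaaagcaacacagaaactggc
Cd5l: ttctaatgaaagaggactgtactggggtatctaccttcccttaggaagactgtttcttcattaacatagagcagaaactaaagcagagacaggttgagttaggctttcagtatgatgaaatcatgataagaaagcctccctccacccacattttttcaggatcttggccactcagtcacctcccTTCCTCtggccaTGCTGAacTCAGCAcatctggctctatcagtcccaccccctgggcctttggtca
Timd4: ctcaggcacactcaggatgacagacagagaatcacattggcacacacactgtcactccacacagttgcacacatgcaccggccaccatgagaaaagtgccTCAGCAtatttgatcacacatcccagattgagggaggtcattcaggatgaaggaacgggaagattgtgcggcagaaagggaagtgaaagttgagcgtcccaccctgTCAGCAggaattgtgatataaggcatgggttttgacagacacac
The Marco window held 1 GAGGAA, 146 bases before the start. Vsig4 held it at 155 and 53 bases, and Cd5l held it on the other strand at 66 bases beside TGCTGA at 54 bases and its reverse complement at 46 bases. In Timd4 the MAF half-site stood on the other strand at 150 and 44 bases. RefSeq windows were matched for 7 of the 10 genes, of which 4 held GAGGAA (23.3% of all 32851 windows) and 3 held TGCTGA (16.1%). The letters TCATGTG, bound by MITF and TFE factors, were in 0 of the 7 (3.25% of all windows). No motif overlapped another in the 4 windows shown, and a match is a description of these letters only.

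Clec4f and Cd5l had the highest levels per length of the 10 genes in every DKO library. Clec4f, a C-type lectin that in the mouse is largely restricted to Kupffer cells (chr6:83644542-83656187), stood at 20.1, 16.5 and 8.65 FPKM in DKO replicates 1 to 3. The p21TKO libraries held 7.32, 40.1 and 11.2 FPKM of Clec4f, so they included both the lowest and the highest of the 6 values. Its group means of 15.1 ± 5.85 FPKM (SD, n = 3) and 19.5 ± 17.9 FPKM (SD, n = 3) differed by 0.08 on the log2(FPKM + 1) scale (SE 0.62), less than the spread between replicates (limma adjusted p = 0.971). Cd5l, a secreted scavenger-receptor-like protein of tissue macrophages (chr3:87357881-87371073), was at 24.9, 11.9 and 9.95 FPKM in DKO. It was at 4.59, 58.9 and 15.8 FPKM in p21TKO, a 12.8-fold range within that group against 2.5-fold within DKO. The difference was 0.21 (SE 0.83, limma adjusted p = 0.943), between means of 15.6 ± 8.11 and 26.4 ± 28.7 FPKM (SD, n = 3 each).

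Vsig4, the complement receptor CRIg that binds fragments of C3 on blood-borne particles (chrX:96247203-96293438), stood at 10.4, 5.98 and 4.43 FPKM in DKO. In p21TKO it was at 2.78, 21 and 13.4 FPKM, with replicate 1 below and replicates 2 and 3 above every control. The means were 6.94 ± 3.10 and 12.4 ± 9.13 FPKM (SD, n = 3 each), and the log2 values differed by 0.49 (SE 0.65, limma adjusted p = 0.798). Timd4 encodes a phosphatidylserine receptor of resident macrophages that takes up dying cells (chr11:46810800-46844332). Its DKO levels were 1.8, 1.43 and 0.725 FPKM and its p21TKO levels 0.832, 3.27 and 2.13 FPKM. Unlike the other 9 genes, Timd4 was lowest in DKO replicate 3. Its means were 1.32 ± 0.547 and 2.08 ± 1.22 FPKM (SD, n = 3 each), a difference of 0.35 (SE 0.34, limma adjusted p = 0.723).

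Marco varied most. This class A scavenger receptor, which binds bacteria and polyanions (chr1:120474538-120505024), was at 2.94, 2.87 and 0.725 FPKM in DKO (136, 119 and 31 reads). The p21TKO libraries held 0.161, 26.3 and 45.1 FPKM (6, 1163 and 2350 reads). Replicate 1 was thus below every control and replicates 2 and 3 far above them, and the highest of the 6 values was 280 times the lowest. The exact Poisson 95% interval of the lowest value was 0.0591 to 0.350 FPKM and that of the lowest control 0.492 to 1.03 FPKM. Intervals of this kind cover counting error only. The means of 2.18 ± 1.26 and 23.9 ± 22.6 FPKM (SD, n = 3 each) differed by 1.93 on the log2 scale (SE 1.32), and this was not called (limma adjusted p = 0.624). The difference was 0.92 without p21TKO replicate 3 (limma adjusted p = 0.981) and 1.01 with a sex term (limma adjusted p = 0.758). Without p21TKO replicate 1 it was 3.58 and passed (limma adjusted p = 0.0131), in a fit that called 2.36% of the 9538 tested genes as higher. The remaining p21TKO libraries both lack Y-linked transcripts, which 2 of the 3 controls carry. Within the libraries without these transcripts Marco was higher in p21TKO by 3.17, and within those with them the difference was -1.15.

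The other scavenger receptors were low. Msr1, the class A scavenger receptor for modified lipoproteins (chr8:39581685-39642673), stood at 0.853, 0.425 and 0.518 FPKM in DKO. It reached 0.236, 2.17 and 1.23 FPKM in p21TKO, with the same order of p21TKO replicates as Vsig4. Cd163, the receptor for haemoglobin bound to haptoglobin (chr6:124304656-124330527), was at 1.27, 0.494 and 0.461 FPKM in DKO and 0.151, 0.622 and 1.35 FPKM in p21TKO. Cd163 was the only 1 of the 10 genes whose mean log2 value was not higher in p21TKO. Both genes had a mean under 1 FPKM and were outside the main test. In the fit without a filter their differences were 0.38 (SE 0.36, limma adjusted p = 0.729) for Msr1 and -0.06 (SE 0.32, limma adjusted p = 0.959) for Cd163.

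The genes shared by most macrophages had the same order of p21TKO libraries as Clec4f. Csf1r, the receptor for the growth factors CSF1 and IL-34 (chr18:61100598-61132149), was at 3.83, 2.62 and 1.49 FPKM in DKO and 1.24, 9.55 and 3.83 FPKM in p21TKO. Of its 5774 exon bases, 873 overlap Hmgxb3 on the opposite strand, and strandedness is not given. Hmgxb3 itself ranged only from 0.599 to 1.09 FPKM. Cd68, a lysosomal glycoprotein of phagocytes (chr11:69664213-69666153), was at 2.81, 2.37 and 1.29 FPKM in DKO and 1.23, 7 and 4.38 FPKM in p21TKO. Adgre1 encodes F4/80, the adhesion receptor used to stain mouse macrophages (chr17:57358691-57483527). Its levels were 1.56, 0.646 and 0.667 FPKM in DKO and 0.415, 5.42 and 0.970 FPKM in p21TKO, so that its high p21TKO mean came from replicate 2 alone. The log2 differences were 0.47 for Csf1r (SE 0.56, limma adjusted p = 0.772), 0.57 for Cd68 (SE 0.47, limma adjusted p = 0.677) and 0.45 for Adgre1 (SE 0.55, limma adjusted p = 0.778).

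**Figure D1:**
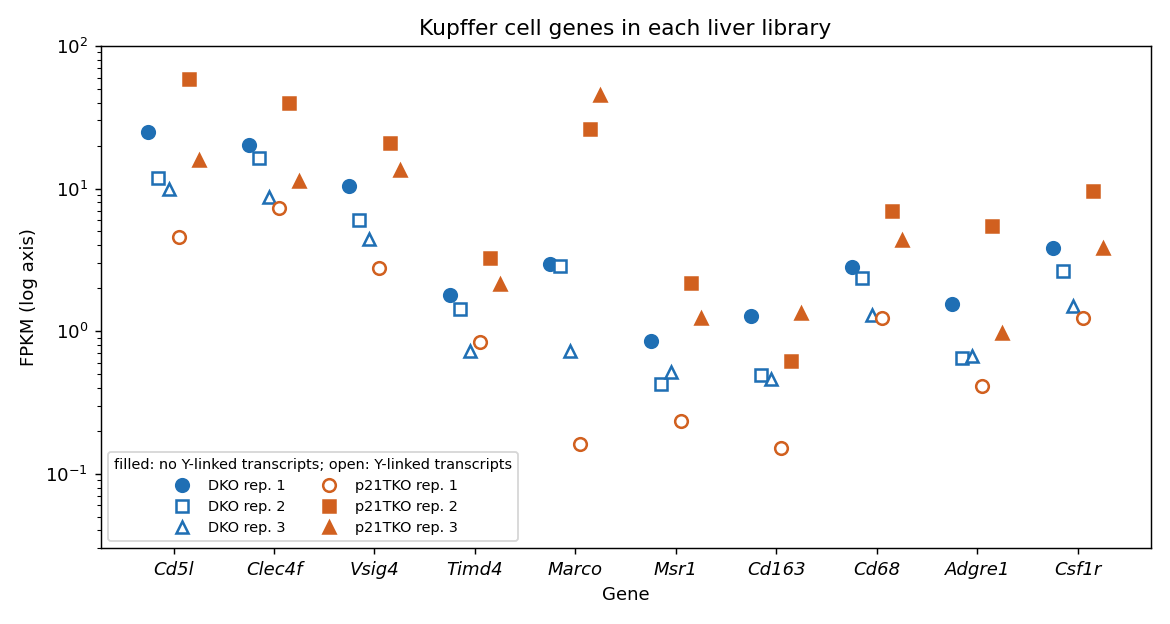
Level of the 10 Kupffer cell genes in each liver library, in FPKM on a log axis; blue points are DKO and orange points p21TKO, open symbols mark libraries with Y-linked transcripts and filled symbols libraries without them. p21TKO replicate 1 holds the lowest value for 9 of the 10 genes and p21TKO replicate 2 the highest for 8, and Marco spans the widest range, from 0.161 to 45.1 FPKM.

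Across the 10 genes, no genotype difference passed the test. Of the 8 genes that averaged 1 FPKM or more, 0 were called by limma, against 0.0734% of the 9538 tested genes in either direction. An unadjusted limma p under 0.05 was found for 0 of the 8 and for 895 of the 9538. Voom on recovered reads also called 0 of the 8. Groups did not separate in either direction for any of the 10 genes. Every p21TKO library was above every DKO library for 6.93% of tested genes, and the share in the other direction is not given here. The median difference of the 10 genes was 0.41 on the log2 scale (range -0.06 to 1.93) and 0.002 over all tested genes. With a term for Y-linked transcripts the median was 0.092, and the differences of Clec4f, Cd5l and Vsig4 were negative. Leaving out p21TKO replicate 2 gave -0.041 and leaving out p21TKO replicate 1 gave 0.958, so 1 library changed its direction and another more than doubled it. An exact permutation test of 3 libraries against 3 could not give a two-sided p below 0.1.

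The spread lay within p21TKO. Replicate 2 was above every DKO library for 8 of the 8 tested genes, against 30.0% of all tested genes, and replicate 3 for 5 of the 8, against 34.9%. Replicate 1 was below every DKO library for 7 of the 8, against 27.3%. Among all 10 genes these counts were 9, 7 and 9. The exceptions were Cd163 for replicate 2, Clec4f, Cd5l and Adgre1 for replicate 3, and Timd4 for replicate 1. For Csf1r and Cd163, replicate 3 exceeded the highest control by only 1.0 and 1.07 times. The summed level of the 10 genes was 70.4, 45.2 and 28.9 FPKM in DKO and 19.0, 174 and 99.5 FPKM in p21TKO.

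The order of the libraries followed the Y-linked transcripts more closely than the genotype labels in the counts that follow, a comparison chosen after the values were seen. For 9 of the 10 genes (7 of the 8 tested), every library without Y-linked transcripts was above every library with them, against 7.22% of tested genes. Clec4f was the exception, with 11.2 FPKM in p21TKO replicate 3 and 16.5 FPKM in DKO replicate 2. Within each genotype the order held for all 10 genes, since DKO replicate 1 exceeded the other controls and p21TKO replicates 2 and 3 exceeded replicate 1, against 12.2% of tested genes. The separation of Marco was narrow, at 2.94 against 2.87 FPKM. The mitochondrial share of the reads in the FPKM denominator separated the same libraries, at 3.65% to 6.23% without Y-linked transcripts and 6.61% to 12.96% with them. With mitochondrial genes left out of the denominator the count was 8.

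Vsig4 averaged 14.9 ± 5.43 FPKM (SD, n = 3) in libraries without Y-linked transcripts and 4.4 ± 1.6 FPKM (SD, n = 3) in those with them. Cd68 averaged 4.73 ± 2.12 and 1.63 ± 0.639 FPKM, and Csf1r 5.74 ± 3.30 and 1.78 ± 0.732 FPKM (SD, n = 3 each). In a model with both genotype and presence of Y-linked transcripts, 0 of the 8 tested genes passed for the latter term, against 0.419% of tested genes. An unadjusted limma p under 0.05 for that term was found for 6 of the 8. The share of all tested genes at that level is not given here, and the comparison was chosen after the values were seen. The term had its smallest p for Vsig4, at 1.56 (SE 0.36, unadjusted p = 0.00397, limma adjusted p = 0.298). For Marco it was 2.77 (SE 0.93, limma adjusted p = 0.435) and for Cd5l 1.81 (SE 0.56, limma adjusted p = 0.435). The median difference between libraries without and with Y-linked transcripts was 1.05 over the 10 genes and -0.039 over all tested genes. With 3 libraries on each side and no sex in the labels, sex and any other property of these libraries cannot be told apart.

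Genotype differences were then read within each kind of library. Among libraries without Y-linked transcripts (1 DKO, 2 p21TKO), 9 of the 10 genes were higher in p21TKO, with a median difference of 0.50 (0.019 over all tested genes). Among those with them (2 DKO, 1 p21TKO), 0 of the 10 were higher, with a median of -0.39 (-0.002 over all tested genes). For Vsig4 these 2 differences were 0.64 and -0.70, for Cd5l 0.29 and -1.09, and for Cd68 0.78 and -0.31. Cd163 alone was lower in p21TKO in both, by -0.21 and -0.36. The difference between the 2 values was tested as an interaction in limma with 2 residual degrees of freedom before moderation. DKO without and p21TKO with Y-linked transcripts are 1 library each, so the test rests on DKO replicate 1 and p21TKO replicate 1. No tested gene of the 8 passed, against 0.136% of all tested genes. The smallest p belonged to Marco (-4.33, SE 0.76, limma adjusted p = 0.125) and Vsig4 (-1.35, SE 0.52, limma adjusted p = 0.635).

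**Figure D2:**
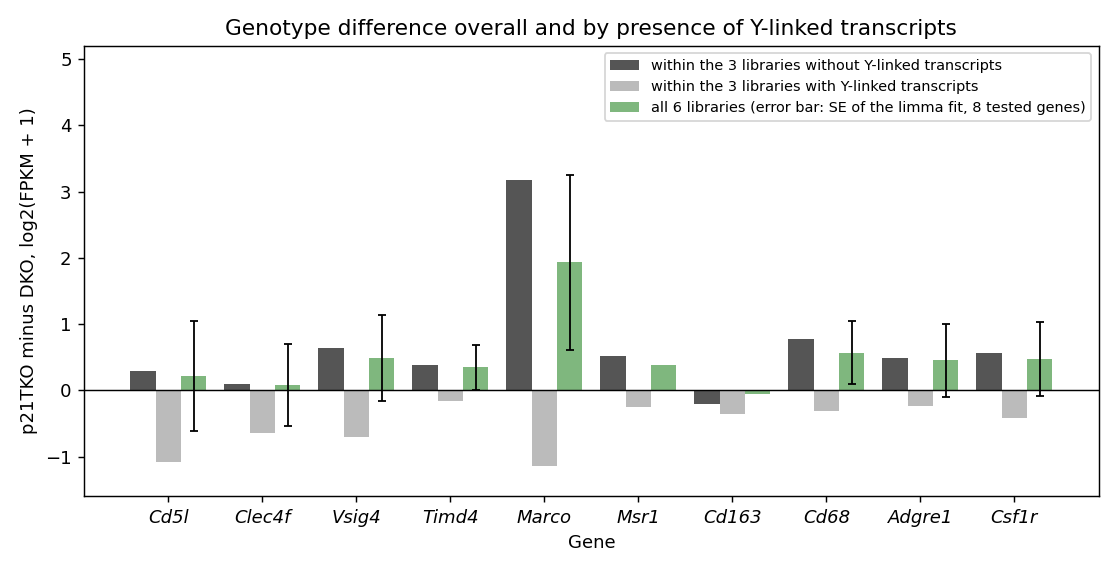
Genotype difference, p21TKO minus DKO on the log2(FPKM + 1) scale, for the 10 Kupffer cell genes; dark and light grey bars are differences within libraries without and with Y-linked transcripts, and green bars use all 6 libraries with the standard error of the limma fit for the 8 tested genes. Dark bars lie above 0 for 9 of the 10 genes and light bars below 0 for all 10, and the Marco bars are the longest, at 3.17 and -1.15.

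Dividing by the summed FPKM of Adgre1, Cd68 and Csf1r in the same library set the other genes beside the shared macrophage genes. That sum was 8.20, 5.63 and 3.44 FPKM in DKO and 2.89, 22.0 and 9.18 FPKM in p21TKO. The 3 shared genes did not keep pace with one another. As parts of the sum, Adgre1 spanned 2.34-fold, Cd68 1.5-fold and Csf1r 1.12-fold, so ranges of about that size do not set a gene apart. Relative to the sum, Vsig4 stayed between 0.954 and 1.46, a 1.54-fold range. Cd5l spanned 1.91-fold, Timd4 1.94-fold, Msr1 1.99-fold and Clec4f 2.39-fold. The Clec4f ratio was 2.45, 2.93 and 2.51 in DKO, 2.53 in p21TKO replicate 1, and lower in p21TKO replicates 2 and 3, at 1.82 and 1.22. Cd163 spanned 5.45-fold and was lowest in p21TKO replicate 2, at 0.0283 against 0.154 in DKO replicate 1. Marco spanned 88.2-fold, with ratios of 0.359, 0.510 and 0.210 in DKO and 0.0557, 1.2 and 4.91 in p21TKO. Marco therefore differed between libraries far beyond the shared macrophage genes, and in p21TKO in both directions.

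**Figure D3:**
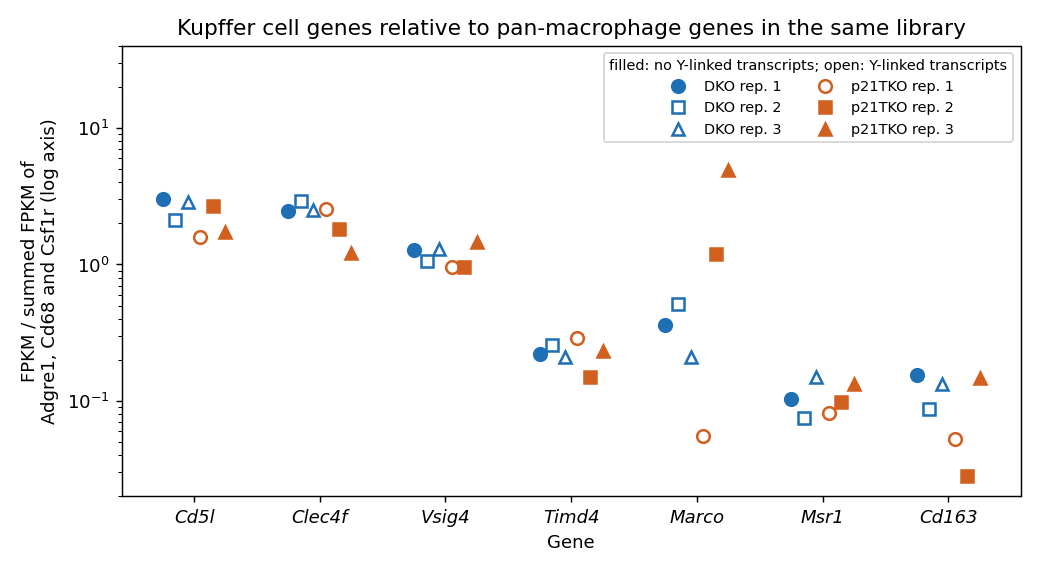
FPKM of each gene divided by the summed FPKM of Adgre1, Cd68 and Csf1r in the same library, on a log axis, with symbols and colours as in the plot of levels by library. The Vsig4 ratios lie between 0.954 and 1.46 in all 6 libraries, while the Marco ratios run from 0.0557 in p21TKO replicate 1 to 4.91 in p21TKO replicate 3.

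In the order of levels per length, Clec4f and Cd5l held the top 2 places and Vsig4 the third in all 3 DKO libraries and in p21TKO replicate 1. The DKO means of Clec4f and Cd5l, 15.1 and 15.6 FPKM, did not differ beyond their spread. Those of Csf1r, Marco and Cd68, at 2.64, 2.18 and 2.16 FPKM, did not either. Marco moved most in rank, from ninth in p21TKO replicate 1 to the third place in replicate 2 and the first in replicate 3. Over the 6 libraries the 45 pairs of genes had Pearson r of 0.275 to 0.989 on the log2 scale, with a median of 0.890 and 21 pairs of at least 0.9. Cd163 had the lowest mean r with the other genes, 0.515, and Vsig4 the highest, 0.895. Timd4 and Cd68 gave the highest pair, at 0.989. All pairs share the same 6 libraries, so these values are descriptions.

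Among 8583 tested protein-coding genes outside the 10, 78 had an r of at least 0.95 with the mean centred profile of the 10 genes over the 6 libraries, and 233 had an r of at least 0.9. The 10 closest were Rnf34, Igsf6, Fam43a, C1qb, Wnt5b, Chtop, Ctcf, C1qc, Dmpk and Lcn2, with r from 0.983 to 0.999. C1qb and C1qc encode chains of complement C1q, which tissue macrophages secrete. C1qb stood at 26.0, 15.8 and 11.9 FPKM in DKO and 8.07, 85.5 and 48.4 FPKM in p21TKO, the same order of libraries as Vsig4. Lcn2, a siderophore-binding protein of the acute phase and of neutrophils, ran from 2.38 FPKM in p21TKO replicate 1 to 1640 FPKM in replicate 2. Likeness in r says nothing of size: Rnf34, a ubiquitin ligase gene, had the highest r but ranged only from 1.05 to 2.10 FPKM, and Ctcf, which encodes a chromatin architecture factor, from 4.79 to 5.74 FPKM.

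Other macrophage genes shared much of this pattern. In a list of 28 further Kupffer and macrophage genes, 23 were tested, 0 were called, and 21 had a positive difference. The median was 0.63 over the 23 tested and 0.49 over all 28. For 15 of the 23, every library without Y-linked transcripts was above every library with them, against 7.22% of all tested genes. Cd14, a co-receptor for lipopolysaccharide, was at 1.03, 0.724 and 0.572 FPKM in DKO and 1.13, 10.6 and 12.9 FPKM in p21TKO. Its groups did not overlap, yet its difference of 1.99 (SE 0.68) did not pass (limma adjusted p = 0.523). Pla2g7, a secreted lipase of macrophages, was at 0.217 to 0.401 FPKM in DKO and 0.107, 7.02 and 4.15 FPKM in p21TKO. Hpgd, a prostaglandin-degrading enzyme, went the other way, with 56.0 to 91.5 FPKM in DKO and 37.0 to 53.3 FPKM in p21TKO (-0.70, SE 0.28, limma adjusted p = 0.523).

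Of 13 Kupffer identity transcription factors, 7 were tested and 0 were called, with 5 positive and 2 negative differences. Spi1, which encodes PU.1, was at 1.81, 1.38 and 1.04 FPKM in DKO and 0.881, 4.4 and 3.70 FPKM in p21TKO, with r = 0.959 to the profile of the 10 genes. Spic, a related factor of iron-recycling macrophages, was low, between 0.0672 and 0.987 FPKM, with r = 0.932. Id3, an inhibitor of basic helix-loop-helix factors needed by Kupffer cells, was at 13.7, 18.5 and 11.1 FPKM in DKO and 20.1, 33.5 and 68.4 FPKM in p21TKO, without overlap (1.29, SE 0.45, limma adjusted p = 0.523). Id1, of the same family, was at 9.58, 5.33 and 3.06 FPKM in DKO and 4.63, 14.7 and 69.4 FPKM in p21TKO. Nr1h3, the oxysterol receptor LXR alpha, stayed between 23.7 and 46.4 FPKM.

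Of 18 growth factor and niche genes 8 were tested and 0 called, with 5 positive and 3 negative differences. Csf1, a ligand of Csf1r, was at 3.4, 1.4 and 1.42 FPKM in DKO and 2.16, 2.93 and 2.48 FPKM in p21TKO (0.25, SE 0.26, limma adjusted p = 0.742). Il34, its second ligand, was at 0.276 to 0.403 FPKM in DKO and 0.509 to 1.0 FPKM in p21TKO, below the filter of the test. Tgfb1, Bmp2 and Gdf2, which encode ligands of the TGF-beta family, had differences of 0.51, 0.76 and 0.60, none of which passed (limma adjusted p = 0.523 to 0.586).

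Genes for Kupffer cell tasks were read in 4 further lists, in which 0 genes were called. Among 23 scavenger and efferocytosis genes, 19 were tested, with 12 positive and 7 negative differences and a median of 0.19. Mfge8, which bridges dying cells to phagocytes, was at 0.748 to 1.30 FPKM in DKO and 1.57 to 2.45 FPKM in p21TKO, without overlap (0.55, SE 0.18, limma adjusted p = 0.523). Colec12, a collectin that acts as a scavenger receptor, did not overlap in the other direction, with 3.63 to 4.67 FPKM in DKO and 1.94 to 3.24 FPKM in p21TKO (-0.49, SE 0.20, limma adjusted p = 0.523). Of 14 iron and heme recycling genes, 13 were tested and 11 had a positive difference. Hmox1, which breaks down heme, was at 6.70, 12.7 and 11.3 FPKM in DKO and 9.82, 45.9 and 59.6 FPKM in p21TKO (1.53, SE 0.65, limma adjusted p = 0.523). In the complement receptor and opsonin list, 9 of 14 genes were tested and 6 had a positive difference. The Fc receptor genes Fcgr4 and Fcgr3 reached 15.3 and 17.2 FPKM in p21TKO replicate 2, against 1.25 to 2.45 and 1.27 to 2.49 FPKM in DKO. In p21TKO replicate 1 both were below every control, at 1.07 and 0.982 FPKM. Of 21 activation cytokines and chemokines only 9 were tested, 6 with a positive and 3 with a negative difference. The median was 0.80 over the 9 tested and 0.17 over all 21. Il1a, Il1b and Ccl24 averaged 0.645, 0.781 and 0.603 FPKM in DKO and passed the filter only through p21TKO, so the filter fixed their sign. Il1a was at 0.501 to 0.822 FPKM in DKO and 0.785, 2.21 and 1.61 FPKM in p21TKO. Il1b was at 0.306 to 1.02 FPKM in DKO and 0.867, 2.60 and 3.55 FPKM in p21TKO. The chemokine gene Ccl24 was at 0.382 to 0.996 FPKM in DKO and 0.638, 4.41 and 3.54 FPKM in p21TKO.

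Markers of other liver cells differed between the same libraries, and their part in the results above was not tested. All 14 genes of liver sinusoidal endothelium were tested, 0 were called and all 14 had a positive difference, with a median of 0.67; 11 of them had every library without Y-linked transcripts above every library with them (7.22% of all tested genes). Their summed level was 27.3 to 44.9 FPKM in DKO and 27.5, 124 and 65.4 FPKM in p21TKO. Pecam1, a junction protein of endothelium, was at 1.52, 1.35 and 1.11 FPKM in DKO and 0.978, 6.51 and 4.65 FPKM in p21TKO. Of 14 neutrophil genes 8 were tested, 0 were called and 8 had a positive difference. The median was 2.24 over the tested genes and 1.2 over all 14. Ngp, Camp, Mmp8 and Mmp9, at most 0.647 FPKM in DKO, passed the filter only through p21TKO replicates 2 and 3, so the filter fixed their sign. The summed level of the 14 genes was 24.8 to 71.3 FPKM in DKO and 27.4, 2200 and 691 FPKM in p21TKO, and 4 were at 0 in some library. Most of the p21TKO sums in replicates 2 and 3 was Lcn2, which the acute phase list also holds. Without Lcn2 the sums were 10.8 to 29.5 FPKM in DKO and 25.1, 560 and 222 FPKM in p21TKO. The order by Y-linked transcripts held for 3 of the 8 tested neutrophil genes. S100a8, a calcium-binding protein of neutrophils and monocytes, was at 1.56, 8.10 and 3.96 FPKM in DKO and 8.04, 182 and 77.5 FPKM in p21TKO. The 12 acute phase genes, made mainly by hepatocytes, had a median difference of 1.16 over the 11 tested, of which 0 were called. The order by Y-linked transcripts held for 5 of these 11. In p21TKO, replicate 2 was above every control for 11 of them and replicate 1 below every control for 9.

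Of 18 genes of monocytes and recruited macrophages only 6 were tested and 0 called. The order by Y-linked transcripts held for 3 of the 6, and p21TKO replicate 2 was above every control for 5. Chil3, a chitinase-like protein, was at 0 to 0.0570 FPKM in DKO and 0.316, 18.4 and 5.39 FPKM in p21TKO. Fabp5, a fatty acid binding protein, had the opposite direction, with 30.3, 19.0 and 11.7 FPKM in DKO and 13.4, 2.44 and 2.40 FPKM in p21TKO (-1.85, SE 0.62, limma adjusted p = 0.523). The summed level of the list was 140 to 210 FPKM in DKO and 120, 261 and 198 FPKM in p21TKO, most of it from Fn1, the fibronectin gene (80.2 to 191 FPKM). Dendritic cell genes were mostly low, with 4 of 13 tested. Cd74, the invariant chain of class II molecules, was at 45.9 FPKM in p21TKO replicate 2 and at most 14.8 FPKM elsewhere. Lymphocyte genes were near absent, with 0 of 12 tested and Cd3e, a T cell receptor subunit, at 0 to 0.102 FPKM. Alb, made by hepatocytes, ranged from 24412 to 37503 FPKM, so hepatocyte transcripts dominated every library. None of the 11 hepatocyte genes, 1 of 8 tested stellate cell and fibroblast genes and 0 of 5 tested erythroid genes had every library without Y-linked transcripts above every library with them.

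**Figure D4:**
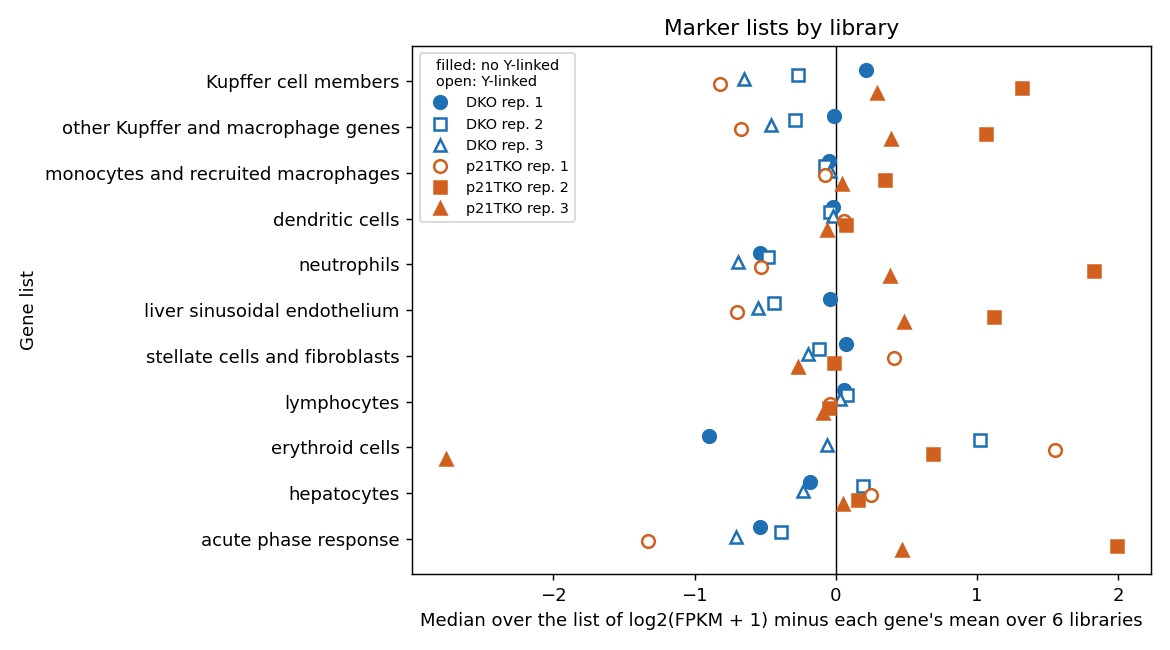
Median over the genes of each list of log2(FPKM + 1) minus the gene's mean over the 6 libraries, 1 point per library, with symbols and colours as in the plot of levels by library. The Kupffer cell genes run from -0.82 in p21TKO replicate 1 to 1.32 in replicate 2, the endothelial list from -0.70 to 1.12 in the same 2 libraries, and the neutrophil list stands at 1.83 in p21TKO replicate 2 against -0.69 to -0.48 in DKO.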

How the data were processed

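PolyA RNA of 6 mouse liver libraries was sequenced after TRIzol extraction and NEBNext Ultra library preparation, per the labels' protocols. The authors deposited FPKM values (reads scaled to exon length and library size) for each gene. HISAT2 2.0.5 is the aligner and featureCounts 1.5.0-p3 the counter named by the submitters' processing notes, beside CASAVA 1.8, fastp and DESeq2 1.20.0. Since these notes list human builds (GRCh38, hg38) for a table of mouse identifiers, which build was used is unclear. Positions come from GENCODE M21 (GRCm38), in which 55480 of 55573 genes were found by identifier.

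The 10 genes and the other gene lists were chosen with earlier results of these data known, so no list was tested as a whole, and some lists share genes (Fcgr3, Slc11a1). Groups follow the genotype labels, all 6 libraries entered each main fit, and leave-one-out fits kept the same genes. FPKM were used as deposited, and the 9538 genes averaging 1 FPKM or more were fitted on log2(FPKM + 1) in R 4.3.3 by limma 3.58.1, two-sided and with an intensity trend. P-values were adjusted by Benjamini-Hochberg over all of them and called at an adjusted p under 0.05. A pseudocount of 1 understates the change of low genes. The fit was tested on simulated data. FPKM times the exon length of GENCODE M21 gave whole reads within 0.02 for 99.3% of values in each library, which gave the read numbers, the Poisson intervals and voom. Genes named beside the 10 are the up to 3 of each list with the smallest p, ligands and lineage factors, targeted, sex-linked and cell type marker genes and the 10 closest profiles. Some of them are given by count only. Alternatives were the pseudocount, filter, scaling, variance model, replicate block, a sex term, voom and leaving out each library. Promoter windows came from the RefSeq promoter table. Computation used Python 3.11.15, scipy 1.17.1 and pandas 2.3.3, and figures matplotlib 3.10.9.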

Additional observations from a re-analysis of the deposited data

How the results depend on the processing

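Under 18 alternatives, the number of Kupffer cell genes called stayed at 0 except where libraries were left out in turn, when it ranged from 0 to 1. The 1 was Marco without p21TKO replicate 1. Its difference ranged from 0.921 to 3.577 when libraries were left out. The median difference of the 10 genes ranged from -0.041 to 0.958 when libraries were left out, was 0.092 with a sex term, and was not computed under quantile normalization and voom, where 2 genes fall outside the filter. With a sex term the differences of Clec4f, Cd5l and Vsig4 turned negative (-0.277, -0.397 and -0.029). Leaving out libraries, the differences ranged from -0.597 to 0.555 for Clec4f, -0.668 to 1.043 for Cd5l, -0.032 to 1.236 for Vsig4, -0.197 to 0.894 for Adgre1, -0.094 to 1.023 for Csf1r and -0.318 to 0.198 for Cd163, so each changed sign; the cause was not tested. Of single-gene values under alternatives, 163 kept their direction and side of the threshold. The count of genes higher in every library without Y-linked transcripts was 9 or 10 with libraries left out, 9 with upper-quartile scaling and 8 without mitochondrial genes, alternatives chosen after seeing the data. Over all tested genes, 7 were called in the main fit, 0 with the block, 1 by voom, 1 with no filter and 495 without p21TKO replicate 1.

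Replicates with the same number did not deviate together (correlations of -0.439, -0.487 and -0.072). Libraries with the same number always differed in Y-linked transcripts, so these correlations cannot show whether the numbers pair the libraries. With the replicate number as a block, the number of Kupffer cell genes called was 0 and the median difference 0.413. At these depths Marco in p21TKO replicate 1 rests on 6 reads and Cd163 on 16, which limits their precision.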
